A study of Mus musculus with 3 samples.

Results

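The cells described here are T and natural killer (NK) cells taken from mouse brains with and without breast cancer metastases. They were 2196 of 11179 cells: clusters 2 and 4 of the table of metastasis-bearing brains (1201 and 747 cells, 1948 of 8443) and cluster 3 of the table of naive brains (248 of 2736). Clusters are those the authors deposited, and the naive cluster is the cluster with the highest mean Cd3e in its table. Cd3e encodes a chain of the CD3 complex, through which the T cell receptor signals, and Ncr1 encodes NKp46, an activating receptor of NK cells. The members were thus chosen by their clusters, by mean Cd3e and, for the split below, by Cd3e and Ncr1 UMIs, so the levels of both genes are given only as a description.

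Each state was represented by 4 brains, 2 from Cx3cr1+/- (heterozygous) and 2 from Cx3cr1-/- (homozygous) mice, all female, on C57Bl/6 and 2 to 3 months old, so that every animal carried at least 1 disrupted copy of the fractalkine receptor gene Cx3cr1. Metastases had been started with E0771 cells, a mouse mammary carcinoma line, given into the carotid artery about 2 weeks earlier; naive mice received no tumour cells. A brain hemisphere per mouse was dissociated after perfusion, enriched for immune cells on a Percoll gradient, stained with 35 barcoded surface antibodies and with its own hashtag antibody, and all 8 brains were pooled into 1 droplet library. The labels name no sort for T or NK cells, and the cells were sequenced once, so the replicate is the brain.

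T cells recognise peptides on MHC molecules through a clonal receptor, whereas NK cells read a balance of inherited activating and inhibitory receptors; both kill through perforin and granzymes. Type I interferons act through the factor complex ISGF3 on a short DNA element, the interferon-stimulated response element, and switch on a shared antiviral programme in nearly every cell type. Interferon-induced chemokines such as Cxcl10 attract lymphocytes that carry Cxcr3. Group 1 innate lymphocytes include circulating NK cells and tissue-resident type 1 innate lymphoid cells, which also carry Ncr1 and are known for Cxcr6, Cd7, Itga1 and granzyme C.

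The largest set of genes higher in the members of metastasis-bearing brains belonged to the type I interferon response, and the promoters of 3 of them are shown because they hold the element that programme is known for. RefSeq sequences on GRCm38.p6 covered 45 of the 54 genes that were higher without overlap and at least 2-fold, a call explained below. The core of the interferon-stimulated response element, written as GAAA, any 2 bases and GAAA again, was searched on both strands in the 250 bases before each start, and overlapping matches were allowed; matches are in capitals.
Isg15: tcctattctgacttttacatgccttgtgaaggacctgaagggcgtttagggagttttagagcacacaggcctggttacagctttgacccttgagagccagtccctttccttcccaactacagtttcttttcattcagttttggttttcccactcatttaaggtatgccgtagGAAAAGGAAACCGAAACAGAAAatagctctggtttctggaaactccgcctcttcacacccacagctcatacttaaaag
Ifit3: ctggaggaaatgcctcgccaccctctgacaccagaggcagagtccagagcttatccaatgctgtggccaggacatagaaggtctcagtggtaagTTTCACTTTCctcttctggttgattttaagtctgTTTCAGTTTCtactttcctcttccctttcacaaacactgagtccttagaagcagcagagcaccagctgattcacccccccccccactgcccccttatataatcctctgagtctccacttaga
Ifit1: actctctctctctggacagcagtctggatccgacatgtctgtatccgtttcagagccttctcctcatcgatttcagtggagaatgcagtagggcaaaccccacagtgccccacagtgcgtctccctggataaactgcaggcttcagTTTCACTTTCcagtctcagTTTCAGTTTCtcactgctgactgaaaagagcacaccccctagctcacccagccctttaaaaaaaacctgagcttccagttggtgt
The Isg15 window is chr4:156200819-156201068 on the minus strand, that of Ifit3 is chr19:34583279-34583528 on the plus strand and that of Ifit1 is chr19:34640639-34640888 on the plus strand. The Isg15 window held 3 overlapping matches 78 to 66 bases before the start, and Ifit3 and Ifit1 each held 2 matches on the opposite strand, at 156 and 122 bases and at 104 and 85 bases. This motif occurred in 20 of the 46 matched genes of the type I interferon list (43.48%), against 203 of 5602 genes tested (3.624%) and 936 of 27025 genes with a promoter (3.463%). Of all genes higher with metastases it occurred in 8 of 45 (17.78%), and of all genes lower with metastases in 4 of 105 (3.81%). Of those 8 genes 6 were on the interferon list, of which 11 called genes had a promoter (54.55% with the motif). A match describes the sequence and shows no binding.

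The labels of both genotypes were checked on Cx3cr1 itself, which microglia express. In the microglia-like clusters (metastasis-bearing cluster 3 and naive cluster 0, named from P2ry12 and Tmem119), Cx3cr1 stood at 1363 and 1464 CPM (counts per 1000000 corrected UMIs) in the heterozygous and at 113.5 and 31.6 CPM in the homozygous metastasis-bearing brains. In naive brains the values were 1953 and 1852 against 75.6 and 71.4 CPM, so the brains sorted as labelled. The T and NK members held little of it: 3.91 to 9.10 CPM with metastases and 9.20 to 133 CPM without.

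The shares of cells with Cd3e and Ncr1 describe genes that took part in the choice and in the clusters. A Cd3e UMI was found in 91.5% and an Ncr1 UMI in 3.25% of the cells of metastasis-bearing cluster 2, the reverse in cluster 4 (1.07% and 83.1%), and both kinds lay together in naive cluster 3 (50% and 38.7%). In the naive table the mean natural-log Cd3e value was 0.757 in cluster 3 and 0.196 in cluster 2, the next in order. All 9 T cell and all 7 NK cell markers listed were above 0 in the members. Their summed level was 3037 to 3413 CPM against 3291 to 3645 CPM in naive brains for T cells, and 691 to 1109 against 978 to 1313 CPM for NK cells.

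The tables shared 1138 cell barcodes, and these cells were left out, because each is given to a metastasis-bearing brain in one table and to a naive brain in the other. Among the members this removed 134 metastasis-bearing cells, with a median of 2488 hashtag UMIs, and 188 naive cells, with a median of 37 hashtag UMIs; the naive cells that stayed had medians of 1254 to 2988.5 per brain. Under 100 hashtag UMIs were held by 28 of the 248 naive and 9 of the 1948 metastasis-bearing members that stayed. Each brain kept 139 to 1107 members with metastases and 44 to 75 without. Medians of 4493 to 5029 raw UMIs per member with metastases and of 5266.5 to 6056 without were measured. The deposited RNA values were corrected for depth in each table separately, to medians of 11367 to 11518 and of 7045 to 7120 UMIs per cell. State and table cannot be told apart, so levels are compared between the states as a description and no test was made across the tables.

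T and NK cells made up 10.3%, 42.4%, 14.5% and 17.8% of the cells of the metastasis-bearing brains (heterozygous 1 and 2, then homozygous 1 and 2, an order kept below) and 7.21%, 11.2%, 13.1% and 8.29% of those of the naive brains. The means were 21.3% ± 14.4 and 9.93% ± 2.67 (SD, n = 4 each), and the lowest metastasis-bearing brain lay within the naive range. The difference of 11.3 percentage points gave p = 0.0857 in a two-sided exact permutation test over brains, whose smallest possible p is 0.0286. It was 4.28 points without heterozygous metastasis-bearing brain 2. With the barcodes found in both tables kept, the shares were 20.1% ± 13.5 and 11.8% ± 1.89 and overlapped (difference 8.32 points, exact permutation p = 0.257). When only clusters rich in Ptprc (CD45, carried by leukocytes and at lower levels by microglia) were counted, the shares were 33.2% ± 13.8 and 11.2% ± 3.18 and did not overlap (difference 21.9 points, exact permutation p = 0.0286). Shares of recovered cells follow the gradient and the tumour cells in the suspension, and they are not cell numbers per brain.

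Cells with Cd3e and no Ncr1 UMI (Cd3e-positive below) numbered 1066 with metastases and 117 without, and cells with Ncr1 and no Cd3e UMI (Ncr1-positive) 619 and 89. A further 41 and 7 cells held both, and 222 and 35 held neither. Cd3e-positive cells were 73.0%, 65.0%, 58.4% and 59.1% of these single-marker cells with metastases and 61.1%, 55.1%, 55.9% and 55.1% without. The ranges overlapped; these percentages rest on the 2 genes used for the split and carry no test. The authors' surface antibody gates called 251 metastasis-bearing members CD4+ and 222 CD8+, and 37 and 29 of the naive members. CD8+ cells were 45.1% ± 11 of the 2 gates with metastases and 42.9% ± 15.9 without (SD, n = 4 each), and the ranges overlapped.

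**Figure D1:**
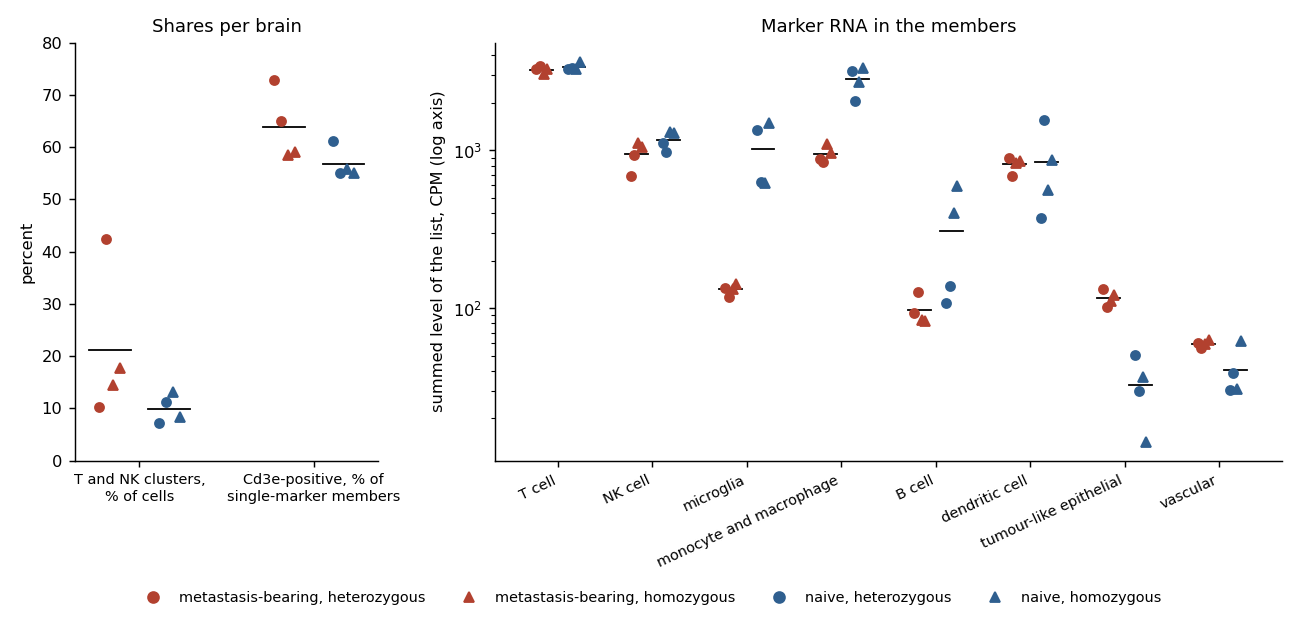
Left, the percentage of each brain's cells in the T and NK clusters and the percentage of Cd3e-positive cells among single-marker members; right, the summed CPM of marker lists in the members on a log axis. Each point is a brain, circles are heterozygous, triangles are homozygous and bars are means. In the left panel 1 metastasis-bearing brain reached 42.4%, and the microglia and monocyte lists were lower in all 4 metastasis-bearing brains.

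For detection per cell, each cell was thinned to 5000 corrected UMIs. This makes only the corrected totals equal, because the raw depths differed between the states and the tables were corrected separately. Among Cd3e-positive members, 12.4% ± 4.16 had a Cd4 UMI with metastases and 14.5% ± 5.26 without, and 17.3% ± 3.65 against 27.5% ± 3.94 had a Cd8a UMI. Trdc, the constant gene of the gamma-delta T cell receptor, was found in 30.4% ± 15.4 with metastases, from 7.87% to 41.0% between brains, and in 27.2% ± 4.54 without. Microglia-like cells, which should lack these genes, gave 0 to 1.60% for Cd4, Cd8a and Trdc after thinning. Foxp3, the factor that defines regulatory T cells, was found in 9.81% ± 3.48 of Cd3e-positive cells with metastases and in 2.34% ± 1.62 without (unthinned 12.9% and 3.66%; microglia-like cells 1.01% and 0%). Mki67, carried by dividing cells, was found in 6.02% ± 0.77 of all members with metastases and in 5.25% ± 4.39 without, against 7.41% and 1.43% of microglia-like cells.

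For expression, corrected UMIs were summed over the members of a brain and scaled to CPM. A gene is called higher or lower here when the 4 metastasis-bearing and the 4 naive brains did not overlap and their means differed at least 2-fold on log2(CPM + 10), a scale that understates the change of low genes; this is a description and not a test. Beside the genes that a rule of size picked, some are named here after their values were seen (Ifit1, Bst2, Rsad2, Ifng, Il10, Krt8, Klre1, Klrk1, Klrb1c, Gzma, Gzmb, Prf1, Cd69, Tnfrsf18, Il2ra, Itgae, Cxcr4, Vegfa, Plac8, Irf8 and Areg). Of 7049 genes with a mean above 10 CPM, 54 were called higher (0.766%) and 139 lower (1.97%) with metastases. Without the demand on size, 734 genes (10.4%) were higher and 1031 (14.6%) lower without overlap. The median over all genes was -0.11; scaling by median ratios moved it by 0.13 to 0.03 and the calls to 88 higher and 104 lower. Without the members under 100 hashtag UMIs 81 genes were called higher, among them all 54, and 137 lower, 123 of them among the 139.

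Interferon-induced genes led the genes higher with metastases. Of the 64 genes of the type I interferon list 59 were tested; 32 were higher and 0 lower without overlap, 16 were called higher, and the median difference was 0.69 against -0.11 over all genes. The list summed to 9496 to 12598 CPM with metastases and to 6530 to 6757 CPM without. It was set beside all genes only as a description, because the lists were chosen with earlier results of these data known.

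Isg15, a ubiquitin-like protein joined to other proteins during antiviral responses, stood at 253, 227, 397 and 363 CPM with metastases and at 171, 94.1, 89.0 and 97.9 CPM without. The means were 310 ± 82.6 and 113 ± 38.7 CPM (SD, n = 4 each; log2 difference 1.39), and the lowest metastasis-bearing brain was above the highest naive brain. Irf7, the factor that amplifies type I interferon production, stood at 196, 138, 242 and 214 CPM against 78.3, 34.4, 76.7 and 64.1 CPM (1.53). Its groups were apart as well. Ifit3, which binds foreign RNA with Ifit1, stood at 232, 79.8, 243 and 213 CPM against 52.2, 71.1, 61.3 and 40.9 CPM (1.51). Here heterozygous metastasis-bearing brain 2 lay close to the naive brains, as it did for Ifit1 (70.7 CPM, the other metastasis-bearing brains 149 to 160 CPM, the naive brains 32.0 to 57.4 CPM).

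Zbp1, a sensor of nucleic acids in the Z form, stood at 160 to 191 CPM with metastases and at 49.1 to 74.3 CPM without (log2 difference 1.35). Ly6a (Sca-1), a surface protein that interferon raises on lymphocytes, stood at 670 to 1092 against 243 to 349 CPM (1.42), and Ifi27l2a at 1126 to 2005 against 402 to 927 CPM (1.48). Bst2 (tetherin), which holds budding viruses at the membrane, stood at 534 to 778 against 232 to 363 CPM (1.27). Rsad2, an antiviral enzyme, overlapped between the states: 84.9, 32.9, 90.2 and 84.2 CPM against 20.1, 34.4, 3.07 and 42.7 CPM. Among cells thinned to 5000 corrected UMIs 57.9% ± 4.59 of members had an Isg15 UMI with metastases and 20.4% ± 3.96 without.

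Interferon genes were higher in other cell types of metastasis-bearing brains too. B-like cells below are metastasis-bearing cluster 8 (91 cells) and naive cluster 7 (96 cells). Their values, like those of pooled microglia-like cells, are summed over a state and have no spread between brains. Isg15 was 1.73 higher (log2) in pooled microglia-like and 1.67 higher in pooled B-like cells of metastasis-bearing brains, and an Isg15 UMI was found in 32.2% ± 11.2 of microglia-like cells with metastases and in 8.21% ± 1.57 without after thinning. Cluster 0 of the metastasis-bearing table, where few cells had a Ptprc UMI, held 251 CPM of Isg15, and the part of free RNA in these shares was not tested. Of the 54 genes called higher in the members, 26 were also at least 2-fold higher in the B-like cluster (all genes, 2.38%) and 14 in the microglia-like cluster (all genes, 1.28%). The interferon list median was 0.32, with 0 genes called, when the barcodes found in both tables were kept. It was 1.25, with 25 genes called higher, in members without a UMI of the 5 myeloid genes C1qa, C1qb, C1qc, P2ry12 and Csf1r.

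Genes that respond to interferon gamma were higher by less in the members as a whole. Of 31 tested immunity GTPases and antigen presentation genes, 17 were higher and 1 lower without overlap, 0 reached 2-fold and the median was 0.31. In Cd3e-positive cells 28 had a positive and 4 a negative difference (median 0.39). In Ncr1-positive cells 15 were positive and 14 negative (median 0.03), and the sums overlapped at 13517 to 16234 against 13866 to 15934 CPM. Irgm1, a GTPase that attacks the vacuoles of microbes, stood at 51.6 to 70.5 CPM against 23.1 to 39.0 CPM (0.77), and Ifi47 at 184 to 211 against 96.1 to 124 CPM (0.75). Ifng itself, made by T and NK cells, overlapped: 164 ± 63.5 against 122 ± 19.1 CPM. Cxcl10, the interferon-induced chemokine, stood at 530, 289, 548 and 516 CPM with metastases and at 173, 124, 239 and 96.1 CPM without (1.55); it was 433 CPM in pooled microglia-like cells of metastasis-bearing brains. Whether the members made it was not tested. Cxcr3, the receptor of Cxcl10, went the other way, at 61.6 ± 9.93 against 112 ± 14.2 CPM (-0.77, no overlap).

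Receptors of activated and regulatory T cells were the next group. Tnfrsf4 (OX40), a costimulatory receptor of activated and regulatory T cells, stood at 414, 128, 260 and 213 CPM with metastases and at 26.1, 23, 18.4 and 96.1 CPM without (log2 difference 2.48, the largest among the 54 genes called higher). Its states were apart although homozygous naive brain 2 lay above the other naive brains. In such sums more cells that carry a gene and more RNA of it per cell cannot be told apart. Foxp3 stood at 27.7, 13.5, 28.8 and 22.8 CPM against 4.02, 4.59, 0 and 8.90 CPM (1.22). Tnfrsf9 (4-1BB), another costimulatory receptor, stood at 157, 104, 138 and 143 against 48.2, 48.2, 79.8 and 58.7 CPM (1.09). Of 9 tested genes of the regulatory T cell list, 3 were higher without overlap, 0 lower and 2 called (median 0.68); Il10, an inhibitory cytokine, overlapped at 9.79 ± 2.98 against 20.0 ± 16.1 CPM. Of 11 genes of the costimulatory family 2 were called higher and 1 lower. The lower gene was Cd40lg, the ligand with which T helper cells activate B cells and dendritic cells, at 7.60 to 13.8 against 24.9 to 58.2 CPM (-1.29).

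Most genes of sugar use were higher. Of 16 glycolysis genes tested 12 had a positive and 4 a negative difference, 11 were higher and 0 lower without overlap, and 1 was called, with a median of 0.50. Pgk1, phosphoglycerate kinase, stood at 241 to 265 CPM with metastases and at 117 to 169 CPM without (0.85), Tpi1 at 206 to 230 against 118 to 132 CPM (0.77) and Pkm, pyruvate kinase, at 456 to 540 against 261 to 331 CPM (0.68). Hif1a, the oxygen-regulated factor that raises glycolysis genes, stood at 289, 239, 223 and 262 CPM against 151, 87.2, 113 and 105 CPM (1.10). Of 30 genes of oxidative phosphorylation 14 were higher and 1 lower without overlap (median 0.17). Of 34 cell cycle genes 1 was higher, 0 were lower and the median was 0.01.

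Some genes called higher are known from epithelial and connective tissue cells rather than lymphocytes, and B-like cells held them at similar levels. Slc16a3, the lactate exporter and the glycolysis gene called higher, stood at 91.8, 78.9, 85.7 and 81.7 CPM against 34.1, 16.1, 18.4 and 14.2 CPM in the members (1.66), and at 82.4 against 21.0 CPM in B-like cells. Serpinh1, a collagen chaperone, stood at 83.5 ± 7.25 against 21.6 ± 9.07 CPM in the members (1.61) and at 96.0 against 16.8 CPM in B-like cells. Krt8, a keratin of epithelial cells, stood at 48.0 ± 4.71 against 9.09 ± 6.38 CPM (1.65), and at 72.7 against 11.2 CPM in B-like cells. Cluster 0 of the metastasis-bearing table, with a median of 103002 raw UMIs per cell and a Ptprc UMI in 1.54% of its 2732 cells, held 460 CPM of Slc16a3, 887 CPM of Serpinh1 and 547 CPM of Krt8. Of the 54 genes called higher 15 (27.8%) were over 5 times higher in that cluster than in the members, against 291 of all genes (4.13%), and none of the 15 was on the interferon list. Both tested genes of the tumour-like epithelial marker list (Krt8 and Wfdc2) were called higher; the list of 6 genes summed to 102 to 131 CPM with metastases and to 14.2 to 50.2 CPM without, and Krt7 was at 0 in every brain. Pgk1 and Pkm stood at 833 and 1000.1 CPM in cluster 0, above the members. The part of RNA from those cells in the members' values was not tested.

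Several receptors of NK cells and innate lymphocytes were lower with metastases. Of 25 tested NK cell receptors and adaptors 1 was higher and 10 lower without overlap, 3 of these called, with a median of -0.31. Cd226 (DNAM-1), an activating receptor for ligands on stressed and tumour cells, stood at 34.6, 45.3, 41.8 and 35.2 CPM with metastases and at 145, 135, 212 and 137 CPM without (-1.75). The highest metastasis-bearing brain was far below the lowest naive brain. Klrb1f, a lectin-like receptor of the NK gene complex, stood at 32.7 to 62.2 against 85.9 to 110 CPM (-1.07). Klre1, Klrk1 (NKG2D) and Klrb1c (NK1.1) overlapped between the states, with differences of -0.05, -0.07 and -0.23.

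Genes of cell killing lay on both sides. Of 16 tested cytotoxic effector genes 2 were higher and 6 lower without overlap, 1 was called higher and 4 lower, and the median was 0.05; the list summed to 6013 to 10631 CPM with metastases and to 5602 to 7858 CPM without. Gzmc, a granzyme of resident innate lymphocytes, stood at 23.3, 55.4, 108 and 38.3 CPM with metastases and at 514, 638, 675 and 317 CPM without (-3.15). Gzma overlapped at 1708, 2866, 3946 and 4386 CPM against 1884, 615, 1770 and 1356 CPM (1.22), and Gzmb at 715, 908, 1261 and 1534 against 478, 519, 929 and 376 CPM (0.95). Heterozygous metastasis-bearing brain 1 was the lowest of its state for both. Prf1 (perforin) overlapped too, at 280 ± 79.4 against 197 ± 37.5 CPM. Tnfsf10 (TRAIL), a death ligand of liver and tissue innate lymphocytes, stood at 16.2 to 22 against 53.4 to 74.3 CPM (-1.33), and Serpinb6b, an inhibitor of granzymes, at 255 ± 42.8 against 122 ± 37.7 CPM (1.04).

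Several genes of tissue residency and type 2 innate lymphoid cells were lower as well. Itga1 (CD49a), the collagen-binding integrin of resident lymphocytes, stood at 25.1, 20.3, 13.2 and 9.18 CPM with metastases and at 74.3, 117, 123 and 80.1 CPM without (-2.02). Xcl1, a chemokine that draws cross-presenting dendritic cells, stood at 331, 563, 635 and 412 CPM against 962, 925, 1282 and 1481 CPM (-1.26), and Cxcr6 at 166 to 260 against 297 to 542 CPM (-0.91). Il1rl1, the interleukin 33 receptor, stood at 2.06 to 12.6 against 28.1 to 46.0 CPM (-1.45) and Gata3, the factor of type 2 lymphocytes, at 34.0 to 60.4 against 64.1 to 96.4 CPM (-0.79). Of 15 residency genes 0 were higher and 5 lower without overlap (median -0.28), and Cd69, an early activation and residency marker, overlapped at 329 ± 109 and 330 ± 76.4 CPM. Of 22 T cell receptor signalling genes 0 were higher and 5 lower without overlap and 0 reached 2-fold, with a median of -0.13 against -0.11 over all genes, of which 14.6% were lower without overlap. The list thus lay near the background; Thy1, a member of it, stood at 149 to 180 against 256 to 285 CPM (-0.77).

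**Figure D2:**
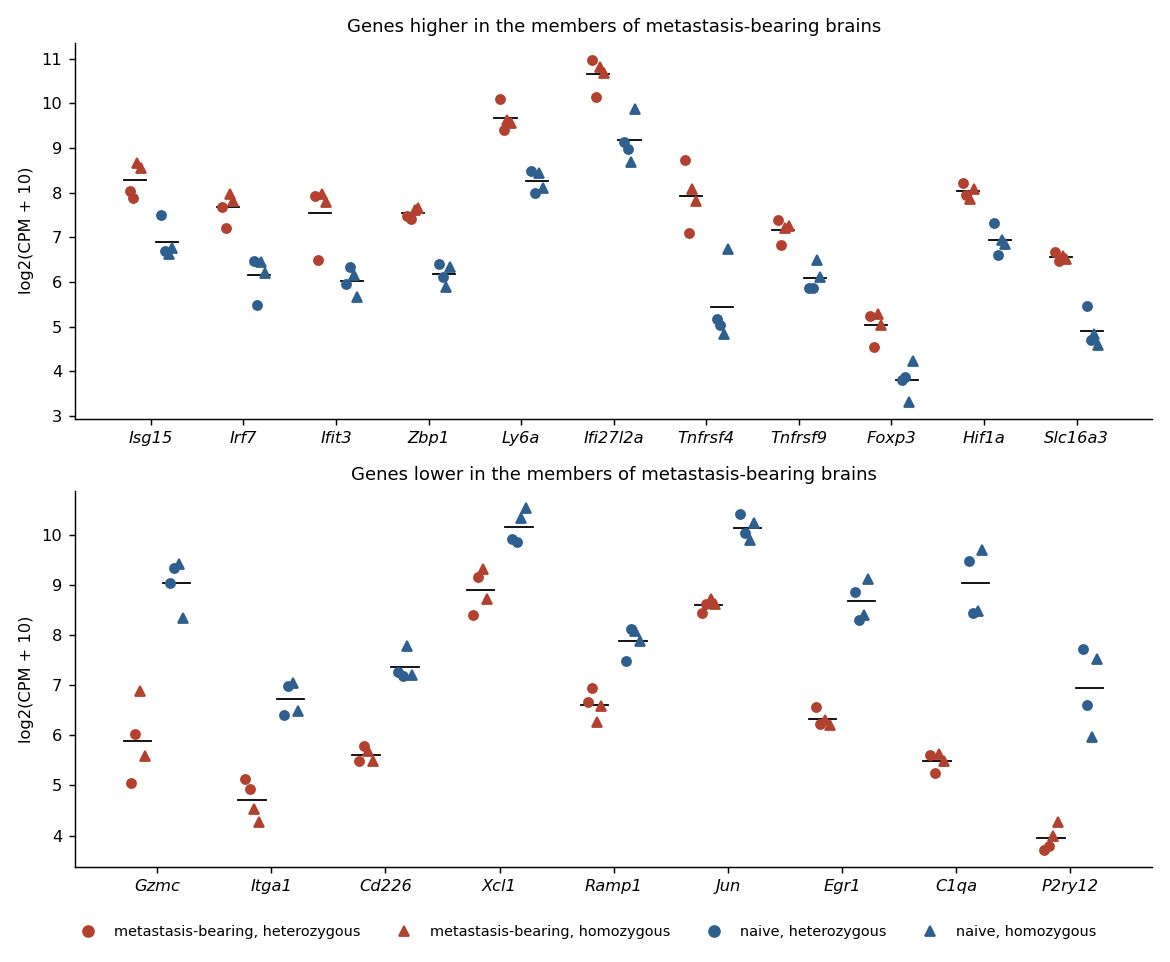
Level of 11 genes higher (top) and 9 genes lower (bottom) in the T and NK members of metastasis-bearing brains, as log2(CPM + 10). Each point is a brain, circles are heterozygous, triangles are homozygous and bars are means. For all 20 genes the 4 metastasis-bearing and the 4 naive brains do not overlap.

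Immediate early genes, which rise within minutes of stimulation or tissue dissociation, were lower with metastases in the members as a whole. Of 36 tested, 1 was higher and 16 lower without overlap and 7 were called lower (median -0.26). Jun stood at 336, 385, 415 and 383 CPM against 1370, 1037, 951 and 1194 CPM (-1.55), Fosb at 136 ± 19.8 against 585 ± 55.0 CPM (-2.03) and Egr1 at 84.2, 64.4, 69.0 and 64.3 against 458, 308, 328 and 546 CPM (-2.35). In members without a UMI of the 5 myeloid genes the list median turned to 0.14, with 1 gene called higher and 0 lower, and Egr1 and Atf3 turned to 0.48 and 0.14; that subset held 61 to 588 cells per metastasis-bearing and 8 to 17 per naive brain.

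RNA of myeloid cells stood beside these differences. C1qa, a complement gene of microglia and macrophages, was at 39.0, 27.9, 39.1 and 34.8 CPM in the members with metastases and at 707, 340, 350 and 828 CPM without (-3.54). Apart from Gzmc the 12 genes lower by most were known microglia or macrophage genes such as C1qb, C1qc, Csf1r, P2ry12 and Trem2. All 7 tested microglia markers were called lower, with a summed level of 118 to 142 against 620 to 1501 CPM, as were 7 of 10 monocyte and macrophage markers, with 840 to 1094 against 2061 to 3316 CPM. In B-like cells C1qa was 4.67 lower (log2) and in microglia-like cells 0.11 lower. Of the 139 genes called lower in the members 83 were over 5 times higher in naive microglia-like cells than in naive members, against 222 of all 7049 genes, and 91 were at least 2-fold lower in B-like cells too (all genes, 9.07%). Gzmc, Cd226, Itga1 and Xcl1 were at 1.60 CPM or less in naive microglia-like cells. The part of myeloid RNA in the other differences was not tested.

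**Figure D3:**
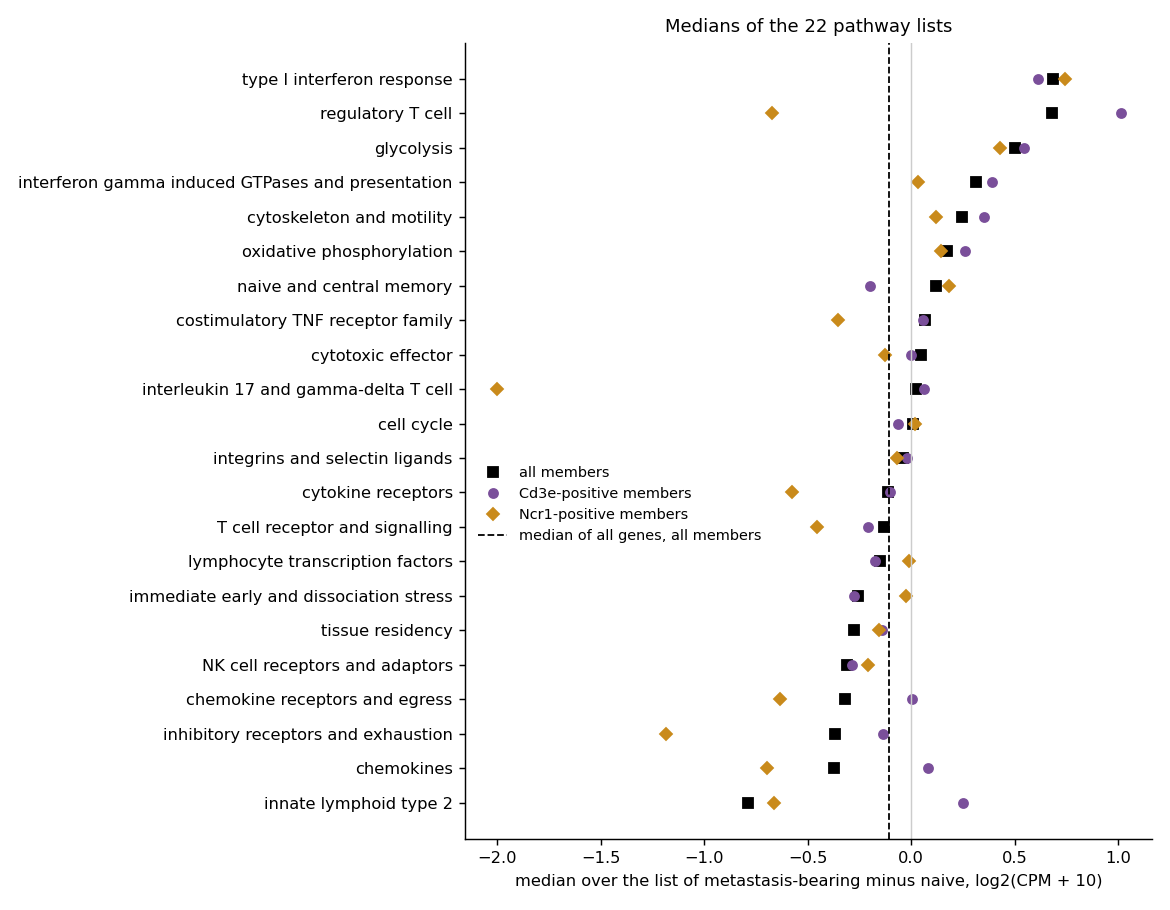
Median of metastasis-bearing minus naive on log2(CPM + 10) for each of the 22 pathway lists, in all members (squares), Cd3e-positive members (circles) and Ncr1-positive members (diamonds); the dashed line is the median of all genes in all members. The interferon list lies at 0.69, 0.61 and 0.74, the regulatory T cell list at 1.01 in Cd3e-positive and -0.67 in Ncr1-positive members.

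The members were then divided into Cd3e-positive and Ncr1-positive cells, a split the mixed naive cluster makes necessary. In Cd3e-positive cells 50 of 7016 genes (0.713%) were called higher and 134 (1.91%) lower; the 50 became 112 without homozygous naive brain 2. In Ncr1-positive cells 92 of 6887 (1.34%) were called higher and 199 (2.89%) lower. Without the demand on size, 561 genes were higher and 601 lower without overlap in Cd3e-positive cells, and 448 and 635 in Ncr1-positive cells. Both comparisons rest on the same 8 brains. In cells without a UMI of the 5 myeloid genes the calls were 238 and 72 in Cd3e-positive and 198 and 219 in Ncr1-positive cells, but this left 4 to 11 Cd3e-positive and 2 to 6 Ncr1-positive cells per naive brain.

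In Cd3e-positive cells the summed interferon list was apart between the states. Of 58 genes tested there 17 were higher without overlap (all genes, 561 of 7016) and 9 called (median 0.61). The list summed to 11170 to 15691 CPM against 7627 to 8576 CPM. In Ncr1-positive cells 47 of 55 genes had a positive and 8 a negative difference (median 0.74). Only 7 were higher without overlap (all genes, 448 of 6887), 0 were lower and 4 were called. The sums overlapped there, at 5222 to 8876 against 4849 to 5700 CPM. Irf7 stood at 139 to 237 against 65.8 to 122 CPM in Cd3e-positive cells (1.10) and at 121, 137, 245 and 206 against 26.1, 12.5, 17 and 58.1 CPM in Ncr1-positive cells (2.37). Isg15 was apart in Cd3e-positive cells, at 253 to 483 against 112 to 157 CPM (1.37), and overlapped in Ncr1-positive cells, where heterozygous naive brain 1 stood at 241 CPM and heterozygous metastasis-bearing brain 1 at 94.2 CPM.

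Cd3e-positive cells carried the differences in T cell activation receptors. Tnfrsf4 stood at 640, 215, 463 and 372 CPM with metastases and at 33.6, 50.6, 43.9 and 157 CPM without (2.53), Tnfrsf9 at 186, 89.4, 156 and 137 against 0, 0, 7.32 and 71.6 CPM (2.93) and Tnfrsf18 (GITR) at 413, 196, 354 and 300 against 151, 96.2, 58.6 and 147 CPM (1.44). The states were apart for all 3. Foxp3 (1.59) and Il2ra, the high-affinity interleukin 2 receptor chain (1.43), were apart as well, and 4 of 9 regulatory T cell genes were called higher. Gzmb stood at 401 to 583 against 7.32 to 164 CPM (2.76), and Itgae (CD103), an integrin of resident T cells, at 48.9 to 86.0 against 0 to 47.7 CPM (1.26). After thinning a Tnfrsf4 UMI was found in 24.7% ± 5.72 of Cd3e-positive cells with metastases and in 8.73% ± 3.34 without (microglia-like cells 1.66% and 1.37%).

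In Ncr1-positive cells several receptors and effectors differed between the states. Lower with metastases were Itga1 at 11.1 to 37.7 against 112 to 219 CPM (-2.25), Cd226 at 17.6 to 40.4 against 188 to 293 CPM (-2.65), Cxcr3 at 11.1 to 40.4 against 68.2 to 219 CPM (-1.92) and Tmem176b at 15.7 to 80.7 against 206 to 378 CPM (-2.86). Gzmc was lower too, at 88.8, 134, 283 and 78.6 against 1670, 1643, 716 and 787 CPM (-3.02). Higher were Gzma at 6107, 8099, 9298 and 10776 against 4565, 1298, 4900 and 3335 CPM (1.42) and Cxcr4 at 136 to 174 against 43.9 to 89.4 CPM (1.10). Vegfa, an angiogenic factor, stood at 144 against 43.0 CPM (1.68). Of 13 tested tissue residency genes 0 were higher and 6 lower without overlap (all genes, 448 and 635 of 6887). Of these genes 4 were called lower, although the list median was -0.15. Of 13 genes of the list of inhibitory receptors and exhaustion genes, 5 were called lower and 0 higher (all genes, 199 and 92 of 6887). Among the 5 was Tox, which is not a receptor, at 19.4 to 32.3 against 107 to 179 CPM (-1.99). Of 18 genes of the interleukin 17 and gamma-delta list 7 had a mean above 10 CPM, and 4 of these were called lower. A gene low with metastases can pass that filter through its naive level alone. Il17f, Il23r, Sox13 and 5830411N06Rik were at 0 in every brain, and the list summed to 122 to 358 against 884 to 1040 CPM. The NK marker list summed to 2371 to 2543 against 2433 to 3119 CPM and the microglia list to 132 to 183 against 179 to 1063 CPM.

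The gap between the 2 kinds of cell can be tested, because in the difference of log2(CPM + 10) between Cd3e-positive and Ncr1-positive cells of a brain a gene-wise scale difference between the tables cancels as long as the gene stands well above the pseudocount of 10 CPM in both kinds. It does not cancel for genes near or below 10 CPM in a kind, as Cxcr6, Ctla4, Il7r and Emp1 were in some brains. Gzmc was at 0 to 8.13 CPM in Cd3e-positive cells of every brain, so its gap follows its difference in Ncr1-positive cells (-3.02). Itgam was at 2.46 to 7.79 CPM in Cd3e-positive cells with metastases, and Tnfrsf4 at 0 to 13.4 CPM in Ncr1-positive cells. For such genes the adjusted p does not tell state from table. Every brain had at least 15 cells of each kind. In limma, with Benjamini-Hochberg adjustment over 7035 genes, the gap shifted towards Cd3e-positive cells with metastases for 29 genes (0.412%) and towards Ncr1-positive cells for 15 (0.213%) at an adjusted p under 0.05. Of the 29 genes all 29 were lower with metastases in Ncr1-positive cells, 24 of them by more than they differed in Cd3e-positive cells, where 18 were higher and 11 lower. None of the 29 was over 5 times higher in naive microglia-like cells than in naive members, whereas 8 of the 15 were (Itgam, Klf2, Olfml3, Mef2c, Anxa3, Jun, Kctd12 and Lrp1). The 44 calls became 10 and 12 without homozygous metastasis-bearing brain 1 or 2, 22 without heterozygous metastasis-bearing brain 2 and 78 without homozygous naive brain 1. With a pseudocount of 1 CPM, a setting chosen after seeing the data, 28 genes passed, 27 of them among the 44, and Gzmc did not (limma adjusted p = 0.0927).

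Cxcr6, the receptor for Cxcl16 that holds lymphocytes in tissues, had the largest change in gap of the genes named by the rule. Its level in Ncr1-positive cells was 26.9, 11.5, 13.6 and 4.63 CPM with metastases and 261, 508, 239 and 277 CPM without, whereas in Cd3e-positive cells it was 201, 412, 345 and 383 against 441, 608, 542 and 320 CPM. The gap changed by 3.28 ± 0.38 (log2, SE; limma adjusted p = 0.00154). Cd7, a receptor of immature and resident lymphocytes, stood at 248, 181, 114 and 82.3 CPM in Ncr1-positive cells against 926, 934, 1180 and 921 CPM, and at 88.7 against 106 CPM in Cd3e-positive cells (gap 2.50 ± 0.29, limma adjusted p = 0.00154). Every metastasis-bearing brain was below every naive brain for both genes in Ncr1-positive cells, and the Cd3e-positive cells overlapped.

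Gzmc (gap 3.06 ± 0.41), Ltb, which encodes lymphotoxin beta (1.86 ± 0.24), and S100a4, a calcium-binding protein of motile cells (2.07 ± 0.27), each had a limma adjusted p of 0.00275. Ctla4, an inhibitory receptor of T cells, was higher in Cd3e-positive (294 against 168 CPM) and lower in Ncr1-positive cells (13 against 57.2 CPM; gap 2.32 ± 0.32, limma adjusted p = 0.00351), as was Il7r, the interleukin 7 receptor (594 against 356 CPM, and 18.5 against 55.1 CPM where the brains overlapped; 1.94 ± 0.28, limma adjusted p = 0.004). Of the pathway lists the regulatory T cell list had the most genes past the threshold for its size, 4 of 9 (Ctla4, Tnfrsf4, Tnfrsf18 and Il2ra). Its median gap was 1.77 against 0.06 over all genes. In Ncr1-positive cells, however, only 5 of the 12 genes of that list had a mean above 10 CPM. Tnfrsf4 stood there at 0 to 2.78 CPM with metastases and at 0 to 13.4 CPM without. Its gap (2.79) thus follows its difference in Cd3e-positive cells (2.53), which was not tested. The interferon list had 0 of 59 genes past the threshold, with a median of 0.11.

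Genes whose gap shifted towards Ncr1-positive cells included Emp1, a membrane protein of epithelial cells, at 72.7, 66.8, 86.7 and 80.5 CPM in Ncr1-positive cells against 0, 6.27, 0 and 31.3 CPM (gap -2.33 ± 0.35, limma adjusted p = 0.00667); it stood at 318 CPM in metastasis-bearing cluster 0 and at 84.3 CPM in B-like cells. Itgam (CD11b), carried by mature NK cells and by microglia, did not differ in Ncr1-positive cells by more than the spread (56.5, 67.4, 58.9 and 47.2 against 78.3, 43.9, 25.6 and 58.1 CPM) and stood at 2.46 to 7.79 against 36.6 to 81.8 CPM in Cd3e-positive cells (gap -2.46 ± 0.33, limma adjusted p = 0.00275). Klf2, a factor of circulating lymphocytes, stood at 944 to 1696 against 239 to 1019 CPM in Ncr1-positive cells (gap -1.87 ± 0.29, limma adjusted p = 0.00785), and at 4816 CPM in naive microglia-like cells. Irf8 and Plac8 passed too (-0.94 and -1.43; limma adjusted p = 0.0193 and 0.018).

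**Figure D4:**
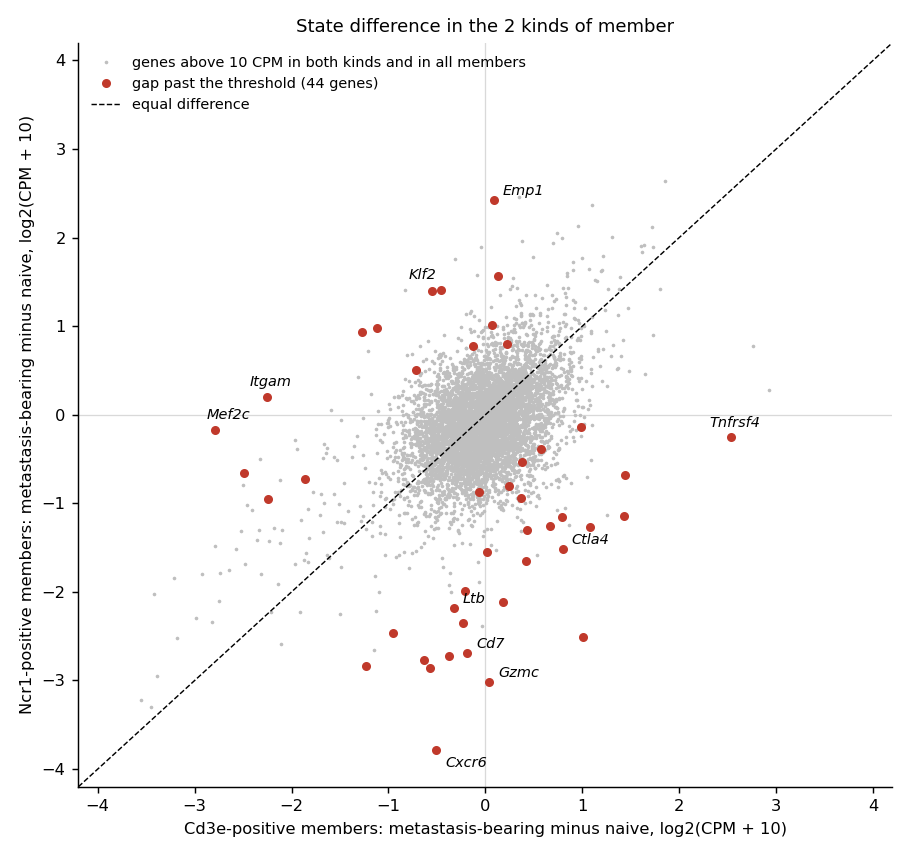
Difference between metastasis-bearing and naive brains on log2(CPM + 10) in Cd3e-positive (x axis) and Ncr1-positive cells (y axis); each grey point is a gene, red points are the 44 genes whose gap differed at a limma adjusted p under 0.05, and the dashed line marks equal differences. Cxcr6 lies at -0.51 on the x axis and -3.79 on the y axis, and Cd7 at -0.19 and -2.69.

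**Figure D5:**
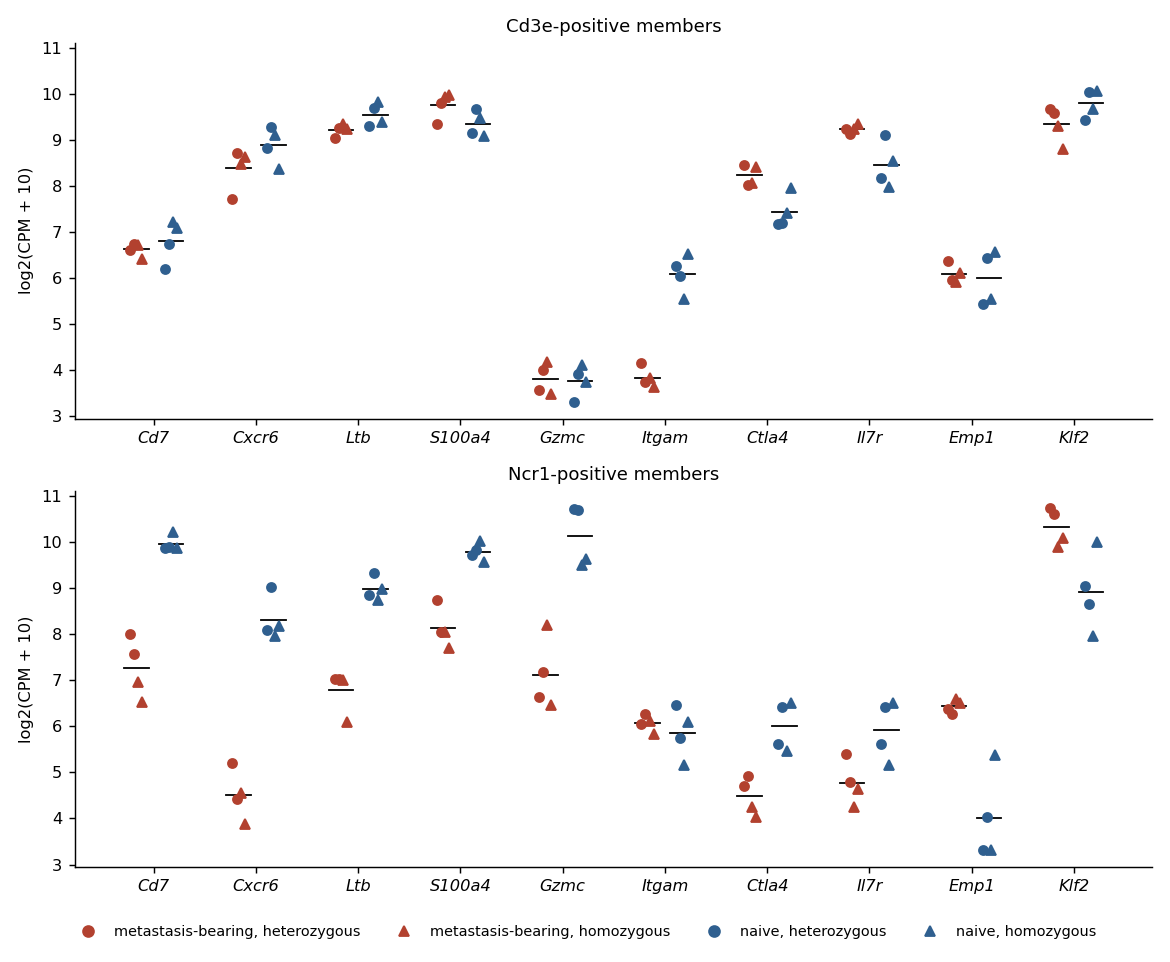
Level, as log2(CPM + 10), of the 10 genes with the smallest p for the gap in Cd3e-positive (top) and Ncr1-positive cells (bottom). Each point is a brain, circles are heterozygous, triangles are homozygous and bars are means. Cd7, Cxcr6, Ltb and Gzmc are apart between the states in Ncr1-positive cells.

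Ncr1-positive cells also lay outside the member clusters, 63 with metastases and 25 without, against 619 and 89 within. Summed over cells, Cxcr6 stood at 323 CPM in the Ncr1-positive cells of naive cluster 3 and at 11.7 CPM in those of metastasis-bearing cluster 4, and at 14.9 CPM in the 36 Ncr1-positive cells of metastasis-bearing cluster 1 and at 0 in the 12 of naive cluster 2. Both of the latter held more Itgam, 225 and 320 CPM, than the members' 61.7 and 53.5 CPM. No value was computed for clusters with fewer than 10 such cells.

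Loss of the second Cx3cr1 copy was compared within each table, 2 homozygous against 2 heterozygous brains, where the depth correction is shared. In metastasis-bearing brains 7 of 6524 genes were higher in homozygous members (0.107%) and 0 lower (0%) at a limma adjusted p under 0.05; 311 genes had an unadjusted p under 0.05. Ifi204, an interferon-induced DNA sensor, stood at 48.4 and 47.8 CPM in heterozygous and at 102 and 98.2 CPM in homozygous brains (log2 difference 0.92 ± 0.10 SE, limma adjusted p = 0.0328). Usp18, which removes Isg15 from proteins (0.83 ± 0.11, limma adjusted p = 0.0346), and Isg15 (0.64 ± 0.09, limma adjusted p = 0.0409) were higher too. So were Cd69, an early activation antigen (227 and 251 against 454 and 386 CPM, 0.79 ± 0.09), Icam1, Dusp2 and Nfkbia. Of the 59 interferon list genes 53 were higher in homozygous brains, with a median of 0.31 against 0.003 over all genes, and 3 passed. Also higher were 7 of 7 NK markers, 19 of 25 NK receptors and 13 of 16 cytotoxic genes (medians 0.31, 0.31 and 0.33). None of these passed, and 3316 of all 6524 genes were higher. Of 9 T cell markers 0 were higher (median -0.13). The marker lists include Ncr1 and Cd3e, which took part in the choice. In naive brains 7 of 7 NK markers (median 0.29), 15 of 23 NK receptors (0.09) and 10 of 15 cytotoxic genes (0.13) were higher. So were 6 of 9 T cell markers there (0.06) and 4433 of all 7453 genes. Klra8, on both NK lists, passed in naive brains. Cd3e-positive cells were 73.0% and 65.0% of single-marker members in heterozygous and 58.4% and 59.1% in homozygous brains. Icam1 overlapped within Cd3e-positive cells (116 and 70.4 against 86.7 and 104 CPM), and the other calls were apart. The part of the cell mix in the calls was not tested. The 7 calls became 41, 192, 14 and 9 without heterozygous brain 1 or 2 or homozygous brain 1 or 2, of which 7, 7, 3 and 4 were among the 7. Among genes above a mean of 50 CPM 0 passed (137 at an unadjusted p under 0.05; smallest limma adjusted p = 0.0782), and 0 passed without the variance trend (294; smallest limma adjusted p = 0.684).

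In naive brains 15 of 7453 genes were higher (0.201%) and 1 lower (0.0134%) in homozygous members, with 408 at an unadjusted p under 0.05. Most were genes of dividing cells: Top2a, the topoisomerase that untangles chromosomes, stood at 24.1 and 6.89 CPM in heterozygous and at 150 and 167 CPM in homozygous brains (2.81 ± 0.33, limma adjusted p = 0.000486), and Stmn1, Ube2c, Nusap1 and Mki67 passed with 2.31 to 2.45. Of 36 cell cycle genes 35 were higher, 7 passed and the median was 1.12 against 0.08 over all genes. The share of members with a Mki67 UMI (unthinned) overlapped, at 10.1% and 1.67% in heterozygous and 4.55% and 14.7% in homozygous brains. In homozygous brain 1 the sums thus rest on the 4.55% of its 44 members, a few cells. Igkc, the kappa light chain of antibodies, stood at 14.1 and 0 against 202 and 230 CPM (3.86 ± 0.36, limma adjusted p = 3.53e-05). Cd79a, a B cell receptor chain, passed as well, at 2.01 and 0 against 33.7 and 53.4 CPM. It cleared the filter of 10 CPM only through the homozygous brains. Of 5 tested B cell markers 2 were higher at the threshold (all genes, 15 of 7453). In homozygous brain 1 Igkc stood at 483 CPM in Cd3e-positive and at 0 in Ncr1-positive cells. In homozygous brain 2 it stood at 228 and 277 CPM. Whether a few cells held this RNA was not tested. The gene lower was Areg, a repair factor of lymphocytes, at 191 and 234 against 85.9 and 87.2 CPM (-1.20 ± 0.21, limma adjusted p = 0.0196). The 16 calls became 0 without homozygous brain 1, 3 without homozygous brain 2, 33 without heterozygous brain 2 and 68 without heterozygous brain 1, and these brains held 44 to 75 members each.

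The genotype difference itself differed between the states for 4 of 7049 genes, all lower with metastases (0.0567%; 0 higher, 0%): Igkc (-4.51 ± 0.49, limma adjusted p = 0.0156), Hmmr (-2.50 ± 0.34), Top2a (-3.04 ± 0.43) and Cd79a (-2.75 ± 0.39, each limma adjusted p = 0.0422). Next was Ier5l (-1.53 ± 0.25, limma adjusted p = 0.12), which did not pass. Cd79a stood at 33.7 and 53.4 CPM in homozygous naive brains and at 0 to 5.03 CPM in the other brains. Hmmr stood at 36.8 and 44.5 against 0 to 8.80 CPM, so both cleared the filter only through the homozygous naive brains. At such levels a scale difference between the tables does not cancel, and the adjusted p does not tell state from table. With a pseudocount of 1 CPM 0 genes passed (smallest limma adjusted p = 0.257). The 4 calls became 0 without heterozygous metastasis-bearing brain 2, homozygous metastasis-bearing brain 2 or homozygous naive brain 1, and 1 to 5 without each of the other 5 brains.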

How the data were processed

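The authors counted UMIs per gene with Cell Ranger 3.1 on mm10 and used Seurat 3.1.1, per the submitters' processing notes. The deposited RNA values are natural log values, ln(1 + depth-corrected UMIs), fitted separately in each of 2 tables; after exponentiation 100% were whole within 1e-06. Deposited per-cell counts (raw, hashtag and antibody UMIs), the hashtag margin score, hashtag assignments, clusters and antibody gates were used as given by the authors. All 9581 and 3874 deposited cells carry the authors' hashtag singlet label, and no further doublet caller was run; 41 and 7 members held UMIs of both Cd3e and Ncr1. Each brain is a separate mouse with its own hashtag, and the GEO samples are the library's RNA and tag files rather than brains.

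Barcodes in both tables were left out, corrected UMIs were summed per brain, scaled to CPM and analysed as log2(CPM + 10) for genes with a mean above 10 CPM. The summed UMIs were 1590590 to 12748913 per metastasis-bearing and 326018 to 561795 per naive brain. Because the depth correction differed between the tables, the states were compared without a test; genotype, its interaction with state and the gap between Cd3e-positive and Ncr1-positive cells were fitted with limma 3.58.1 (trended variance) in R 4.3.3, and adjusted p-values printed beside n under 10 are limma's. Scripts ran on Python 3.11.15 and were tested on simulated data. Shares of cells used a two-sided exact permutation test over brains.

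Members and gene lists were chosen with earlier results of these data known. The genes named were Cd3e and Ncr1, the 12 largest differences in each direction without overlap above 50 CPM, up to 4 such genes of each list, and, for each limma comparison, the genes past the threshold, at most 10 by p, or the 5 smallest p where fewer than 5 passed; others are marked as named after their values were seen. Promoters are RefSeq's on GRCm38.p6. Alternatives changed the pseudocount, the filter, the scaling, the cells and the brains used. A few genes that met these rules are not reported here.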

Additional observations from a re-analysis of the deposited data

Results flagged for a closer look

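In 24 of 250 groups of 4 brains 1 brain stood apart from the other 3 by a gap test for which chance gives about 1 in 20. Among the metastasis-bearing brains the lowest brain stood apart for Cxcl10 (289 CPM), Itgax (8.17 CPM), Pgk1 (241 CPM), Lgals1 (1247 CPM) and the summed interleukin 17 and gamma-delta list (1012 CPM). The highest stood apart for Igfbp4 (96.2 CPM), Ifi47 (211 CPM), Ndufb9 (313 CPM), Flna (168 CPM) and the summed inhibitory receptor list (806 CPM), and for the mast cell (0.471 CPM) and choroid plexus (466 CPM) lists.

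Among the naive brains the highest stood apart for the share of Cd3e-positive among single-marker cells (61.1%), Tnfrsf4 (96.1 CPM), Isg15 (171 CPM) and Cd226 (212 CPM), and for the summed T cell receptor (6120 CPM), NK receptor (6699 CPM), interferon gamma (15076 CPM), T cell (3645 CPM) and mast cell (3.07 CPM) lists. The lowest stood apart for Thy1 (256 CPM), Cxcr3 (90.8 CPM) and Pkm (261 CPM).

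The genotype difference differed between the states in limma for Igkc (-4.51), Hmmr (-2.50), Top2a (-3.04) and Cd79a (-2.75, log2). Outside the homozygous naive brains Hmmr and Cd79a stood below 10 CPM in every brain. The gap between Cd3e-positive and Ncr1-positive cells shifted with state in limma for Cd7 (2.50), Cxcr6 (3.28), Ltb (1.86), S100a4 (2.07), Gzmc (3.06), Itgam (-2.46), Ctla4 (2.32), Il7r (1.94), Emp1 (-2.33) and Klf2 (-1.87).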

How the results depend on the processing

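The naive members numbered 44 to 75 per brain and set the precision. With 1 brain left out, an arm of 2 became a lone brain, which the limma fits take to vary like the others. The difference in share of 11.3 points ranged from 4.28 to 14.99 points with each brain left out in turn. It was 21.9 points over clusters rich in Ptprc and 8.32 points in all deposited cells. Genes called higher and lower numbered 86 and 290 with a pseudocount of 1, 9 and 42 with 50, 34 and 57 above a mean of 50 CPM, 88 and 104 with median-ratio scaling, 19 and 199 in all deposited cells, and 92 and 199 in Ncr1-positive members alone. In members without a UMI of 5 myeloid genes, a setting chosen after seeing the data, they numbered 127 and 104 (33 and 31 of them shared with the 54 and 139), with 238 and 72 in Cd3e-positive and 198 higher in Ncr1-positive members. Leaving out each brain gave 48 to 67 higher and 136 to 160 lower, 55 to 112 and 134 to 186 in Cd3e-positive, and 88 to 123 and 215 to 262 in Ncr1-positive members.

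Reversed values were Batf (-0.067) in all deposited cells; Xcl1 (0.11) in Cd3e-positive members; Il7r (-1.15), Itgam (0.20), Ifi47 (-0.068), Igtp (-0.24) and Batf (-0.0089) in Ncr1-positive members; and Vsir (0.082), Itgam (0.23), Egr1 (0.48), Atf3 (0.14) and the immediate early list median (0.14) in members without a myeloid UMI. The cause was not tested. Of the other values of named genes between states 892 kept direction and size within 1 SD and 316 moved.

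In limma the genotype calls in metastasis-bearing brains were 0 above a mean of 50 CPM (137 genes at an unadjusted p under 0.05) and 0 without a variance trend (294), and 9 to 192 with each brain left out. In naive brains they were 4 with a pseudocount of 1, 1 above 50 CPM, 9 with median-ratio scaling and 0 without a trend (396 unadjusted), and 0 to 68 with each brain left out (246 unadjusted at 0). The difference between states gave 0 calls with a pseudocount of 1 (411 unadjusted) and above 50 CPM (171), 1 without a trend and 1 in all deposited cells, and 0 to 5 with each brain left out. The gap gave 15 genes without a trend, 28 with a pseudocount of 1 and 66 (41 of them among the 44) in members with at least 100 hashtag UMIs, both chosen after seeing the data, and 10 to 78 with each brain left out. No paired analysis was possible between states or genotypes because no mouse is in more than 1 group; the gap compares both kinds of cell within each brain. The permutation test of antibody-gated classes was not run, since the gates differ between the tables.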
